A study of Mus musculus with 4 samples.

Results

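Group 3 innate lymphoid cells (ILC3s) from mice that lack the circular RNA circZbtb20 (circZbtb20-/-) were compared with ILC3s from wild-type mice (circZbtb20+/+) on 1 expression array each. These are 2 of the 4 samples of the series. The other samples are ILC3s of Nr4a1+/+ and Nr4a1-/- mice. The Nr4a1+/+ array serves below as a second wild type, and the Nr4a1-/- array was not used. Every row of the table that carries 1 gene symbol was taken, with the row of highest mean over the 4 arrays for a gene with several rows, which gave 19504 genes from 22205 rows. Cells were sorted by flow cytometry as lineage-negative, CD90 high and CD45 low. The tissue, the lineage markers of the sort, the number of mice behind an array and their age, sex and strain are unstated in the labels used here.

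ILC3s are lymphocytes of mucosal surfaces that carry no rearranged antigen receptor. They depend on the IL-7 receptor and respond to IL-23 and IL-1 with IL-22 and IL-17, which act on the epithelium. A circular RNA is a ring made when the end of an exon is spliced back to an earlier start, so it has no free ends and outlasts most linear transcripts. The study asked how circZbtb20 acts in ILC3s, in relation to Alkbh5, which removes the m6A mark from RNA, to Nr4a1, an orphan nuclear receptor induced by stimulation, and to the receptor Notch2. No row was matched to the circular RNA itself, so the knockout label was not checked on its target.

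A gene is often given with 3 values below, always in the order knockout, paired wild type and Nr4a1 wild type. They are the deposited log2 values, and a difference of 1 between arrays is a 2-fold change. A gene was counted as higher or lower when the knockout differed at least 2-fold from the paired wild type and the greater of both values was no lower than the median of its array, a floor that 11122 genes passed. The array medians were 4.38, 4.48 and 4.51. Each genotype has a single array, so no replicate error is known, no test was made, and precision is limited by this number of arrays. Values end at 19.93, and a difference taken from that ceiling is only a bound. In a bulk sample, fewer cells of a type and less RNA per cell cannot be told apart.

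The knockout stood apart from both wild types over much of the table. Against its paired wild type 3035 genes were higher (27.3% of those past the floor) and 2157 lower (19.4%), 46.7% in all, while 15.2% were called between the wild types. Pearson's correlation over rows was 0.902 with the paired wild type and 0.899 with the other, and 0.974 between the wild types. The same call held against both wild types for 2380 higher genes (22.3% of 10685 past both floors) and 1543 lower genes (14.4%), 36.7% in all, and 22 genes were called in opposite directions. Genes that differed at least 16-fold numbered 168 higher and 114 lower, against 8 and 14 between the wild types. Against the Nr4a1 wild type 47.4% were called, 2949 genes higher (26.4%) and 2338 lower (21.0%). At 64-fold or more from the paired wild type the balance turned, with 16 higher and 39 lower. Shifting each array to a common median of genes above the floor moved the median difference of all genes from 0.04 to -0.26, and higher genes then made up 45.1% of the calls in place of 58.5%. Quantile normalization gave 51.9% and cyclic loess 50.8%.

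**Figure D1:**
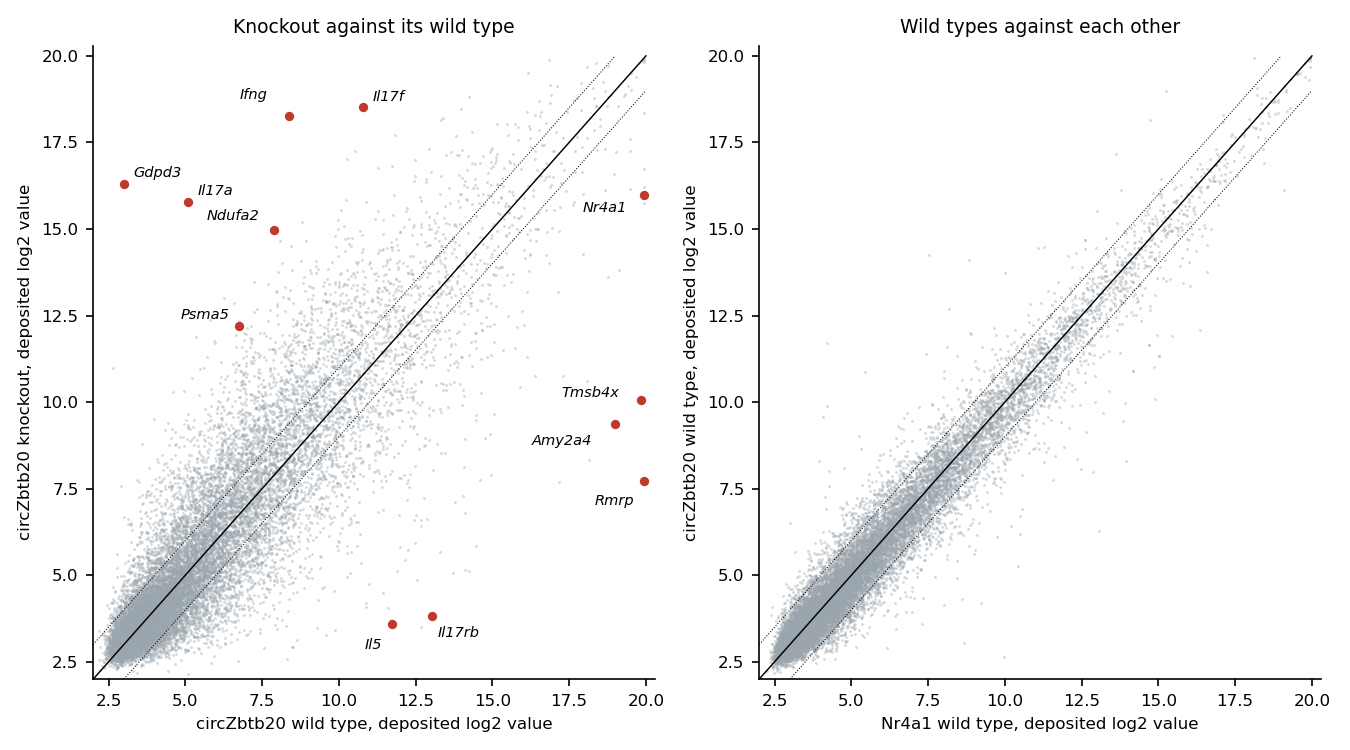
Each point is 1 of 19504 genes, with deposited log2 values of the circZbtb20 knockout against its wild type on the left and of the circZbtb20 wild type against the Nr4a1 wild type on the right. Solid lines mark equality and dotted lines a 2-fold difference. The left cloud is wider than the right one, and named genes include Il17a at 15.79 against 5.10 and Il5 at 3.58 against 11.74.

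The spread was not limited to weak signals. When all genes were cut into 5 equal bins by their value in the Nr4a1 wild type, 30.2% of the 3901 genes in the highest bin were higher in the knockout and 26.7% lower. In bin 4, the next below, 3839 of 3901 genes passed the floor, and 27.0% were higher and 17.3% lower. In bin 3, with 2577 of 3900 genes past the floor, the shares were 12.8% and 8.85%. Shares in bins 1 and 2 are not set against these, since the floor removes most of their genes. In the highest bin the middle 90% of differences ran from -3.14 to 3.24. A stricter set was formed without Gm and Rik genes, small RNAs, chemosensory receptors and segments of antigen receptors. It held the 1045 genes whose wild types differed by less than 0.5 and whose wild-type mean reached the 90th percentile, 9.40. Of these, 271 were higher and 323 lower in the knockout, 56.8% in all, with a median difference of -0.09.

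Several genes of that set were far from a level on which the wild types agreed. Rmrp, the RNA of the RNase MRP particle, was at 7.73 in the knockout and at the ceiling in both wild types, a difference of -12.20 or more in size. Tmsb4x, thymosin beta 4, was at 10.05, 19.85 and 19.88, and Lasp1, an actin-binding adaptor, at 4.87, 12.54 and 12.32. The metallothionein Mt1 stood at 6.63, 12.88 and 13.12, the lymphocyte surface glycoprotein Cd52 at 4.76, 10.97 and 11.42, and Ifrd1 at 7.76, 14.61 and 14.42. In the other direction, Rabac1, which acts on prenylated Rab proteins, was at 17.71, 11.84 and 11.90. Supt4a, a transcription elongation factor, was at 16.75, 11.27 and 11.39, Sod1, the cytosolic superoxide dismutase, at 18.22, 13.39 and 13.77, and Dennd10 at 15.27, 9.96 and 9.55. The centromere histone gene Cenpa was at 14.73, 10.43 and 10.25 and the ubiquitin ligase gene Mkrn1 at 14.04, 9.78 and 9.41. In each of these genes the wild types lie together and the knockout lies more than 16-fold away.

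**Figure D2:**
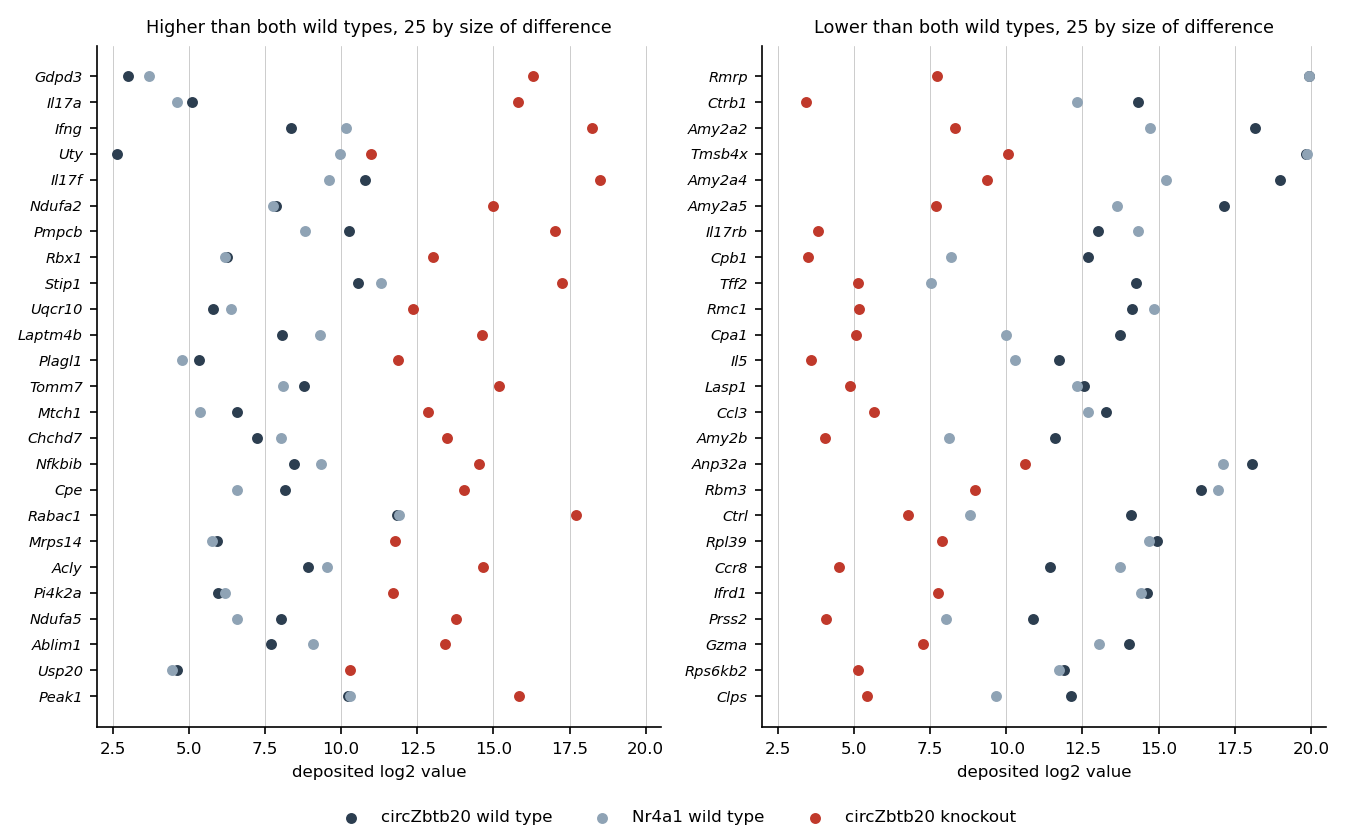
Deposited log2 values on the 3 arrays for the 25 genes most above (left) and the 25 most below (right) the paired wild type among genes called against both wild types. Gdpd3 leads at 16.30 against 3.01 and 3.69, and Rmrp is at 7.73 against 19.93 on both wild types. In Uty the Nr4a1 wild type, at 9.96, lies near the knockout.

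The 25 genes furthest above the paired wild type held 3 cytokines and 8 genes of mitochondrial proteins. Gdpd3, which encodes a phospholipase D-type enzyme, was at 16.30, 3.01 and 3.69. Pmpcb, the beta subunit of the peptidase that trims imported mitochondrial proteins, was at 17.01, 10.25 and 8.82, and Tomm7, a small subunit of the outer-membrane import pore, at 15.19, 8.79 and 8.10. Mtch1 was at 12.85, 6.58 and 5.37 and Chchd7 at 13.47, 7.24 and 8.02. Other members were Rbx1, the RING subunit of cullin ligases, at 13.01, 6.26 and 6.19, and Stip1, which links HSP70 to HSP90, at 17.25, 10.54 and 11.32. Acly, which makes cytosolic acetyl-CoA, was at 14.66, 8.92 and 9.54. Plagl1, a zinc finger factor, stood at 11.87, 5.35 and 4.77, Nfkbib, an inhibitor of NF-kB, at 14.52, 8.44 and 9.34, and Cpe, a carboxypeptidase of secretory granules, at 14.03, 8.15 and 6.57.

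The 25 genes furthest below held 10 pancreatic genes and 5 genes of cytokines, their receptors or cytotoxic granules (Il17rb, Il5, Ccl3, Ccr8 and Gzma). Of the rest, Rmc1, a subunit of a Rab7 exchange factor, was at 5.16, 14.12 and 14.85, Anp32a at 10.60, 18.08 and 17.11, and Rbm3, a cold-inducible RNA-binding protein, at 8.97, 16.40 and 16.96. Rps6kb2, which encodes a kinase of ribosomal protein S6, was at 5.13, 11.88 and 11.73. Tff2, a trefoil peptide, was at 5.13, 14.25 and 7.52, so its wild types lay further apart than the Nr4a1 wild type and the knockout.

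Some genes crossed the range of the array. In the knockout 32 genes were at or above its 75th percentile that were under the median in both wild types, and 40 genes did the reverse. These counts leave out Gm and Rik genes, small RNAs, chemosensory receptors and segments of antigen receptors. After Gdpd3, the widest of the first kind were Acyp2, at 9.52, 3.97 and 3.46, and Kctd4, at 7.74, 3.44 and 3.84, both named after their values were seen, as were Abl1 and Atg7. The tyrosine kinase gene Abl1 stood at 7.42, 3.80 and 3.94 and the autophagy gene Atg7 at 7.25, 3.73 and 4.04. Genes of the second kind included Il17rb, Il5 and Il4, given below, and 3 further secreted factors named after their values were seen. The chemokine Ccl1 was at 3.53, 8.29 and 6.63, Cxcl1 at 4.24, 8.06 and 7.45, and Il10 at 4.35, 7.12 and 7.64.

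The label of the cells was set against 20 ILC3 defining genes, all of which lay above the median on all 3 arrays. Their median level was 13.79 in the knockout, 13.36 in the paired wild type and 13.54 in the other. Among the receptors, Kit stood at 19.67, 18.07 and 18.36, Il7r at 17.63, 16.21 and 16.38, and Il23r at 18.29, 16.38 and 15.43. Il1r1, the IL-1 receptor, was at 13.89, 15.27 and 14.44, and Ncr1, which encodes NKp46, at 16.55, 13.91 and 15.05. Thy1, which encodes CD90 of the sort, was at 10.41, 12.36 and 12.36, and Ptprc, which encodes CD45, at 12.66, 11.89 and 12.54.

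Of these 20 genes 9 were higher and 8 lower in the knockout, beside 27.3% and 19.4% of all genes past the floor. The transcription factor gene Id2 was at 17.32, 18.66 and 18.89 and Rora at 18.37, 17.43 and 17.38. Tox stood at 13.40, 10.81 and 12.04, and Ahr, the aryl hydrocarbon receptor that maintains ILC3s, at 6.57, 7.78 and 9.39. Zbtb16, which encodes PLZF, was at 12.64, 12.81 and 11.55, and its sign turned against the Nr4a1 wild type. The largest difference downward was Il2ra, the high-affinity subunit of the IL-2 receptor, at 7.18, 12.22 and 12.64. Ltb, a lymphotoxin subunit, was at 11.99, 6.90 and 7.07, and the chemokine receptor Ccr6 at 8.11, 5.30 and 5.40. Csf2, which encodes GM-CSF, was at 13.69, 15.02 and 16.05 and Cxcr6 at 13.66, 15.06 and 15.35. Members of the list thus lay on either side of both wild types.

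**Figure D3:**
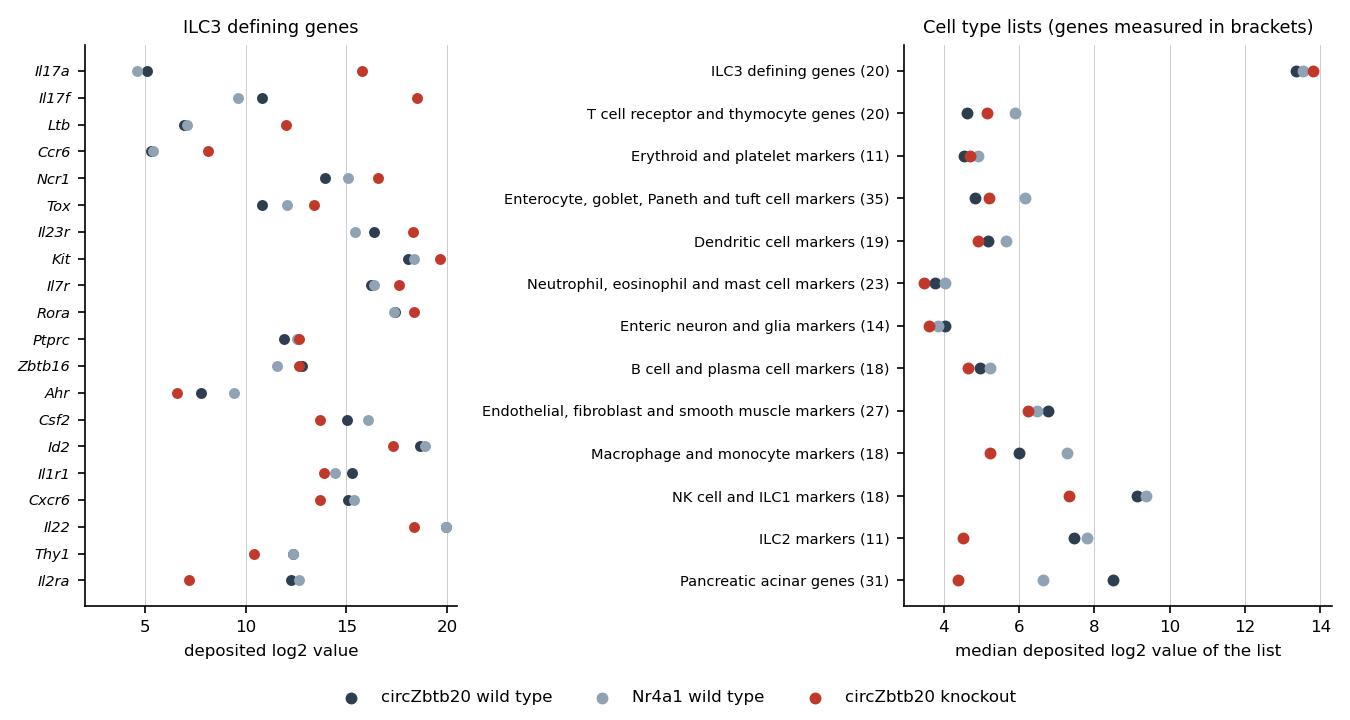
Left, deposited log2 values of the 20 ILC3 defining genes on the 3 arrays, ordered by the difference between the knockout and its paired wild type. Right, the median deposited log2 value of each cell type list, where the knockout is at 4.39 for pancreatic acinar genes, 4.51 for ILC2 markers and 7.33 for NK cell and ILC1 markers, below both wild types in each.

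Cytokine genes gave some of the widest differences, and the promoters of 4 of them and of Nr4a1 are shown so that their letters can be read beside the values. Il17a was at 15.79, 5.10 and 4.60, its neighbour Il17f at 18.51, 10.80 and 9.61, and Ifng at 18.25, 8.37 and 10.16. Il5, the eosinophil growth factor of type 2 cells, was at 3.58, 11.74 and 10.29. Il22 was at 18.34 in the knockout and at the ceiling in both wild types, and Nr4a1 at 15.98, 19.93 and 18.11. Each window holds the 250 bases before a gene's start as RefSeq gives it on GRCm38.p6, printed 5′ to 3′ on the gene's strand. The Il17a window is chr1:20730655-20730904 on the plus strand and that of Il17f chr1:20784271-20784520 on the minus strand. The Ifng window is chr10:118440796-118441045, that of Il5 chr11:53720544-53720793 and that of Nr4a1 chr15:101266596-101266845, all on the plus strand. Capitals mark matches to the 11 motifs named below.
Il17a: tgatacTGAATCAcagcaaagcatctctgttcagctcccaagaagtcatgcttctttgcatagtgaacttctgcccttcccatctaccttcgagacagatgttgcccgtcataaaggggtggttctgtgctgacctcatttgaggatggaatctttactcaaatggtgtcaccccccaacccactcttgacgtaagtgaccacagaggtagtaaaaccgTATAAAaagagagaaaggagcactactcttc
Il17f: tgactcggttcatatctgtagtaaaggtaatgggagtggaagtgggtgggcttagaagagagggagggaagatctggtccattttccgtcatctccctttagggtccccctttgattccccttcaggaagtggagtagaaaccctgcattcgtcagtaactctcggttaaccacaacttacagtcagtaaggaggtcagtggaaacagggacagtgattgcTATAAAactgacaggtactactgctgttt
Ifng: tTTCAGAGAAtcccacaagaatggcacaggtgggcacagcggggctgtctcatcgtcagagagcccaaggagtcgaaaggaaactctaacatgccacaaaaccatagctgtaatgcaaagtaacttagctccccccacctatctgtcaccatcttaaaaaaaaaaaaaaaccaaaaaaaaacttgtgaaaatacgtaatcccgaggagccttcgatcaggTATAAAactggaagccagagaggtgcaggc
Il5: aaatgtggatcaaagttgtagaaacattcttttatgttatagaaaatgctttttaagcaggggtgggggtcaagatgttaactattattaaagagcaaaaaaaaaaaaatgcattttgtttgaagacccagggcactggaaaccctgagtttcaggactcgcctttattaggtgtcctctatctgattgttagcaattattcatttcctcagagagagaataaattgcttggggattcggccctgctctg
Nr4a1: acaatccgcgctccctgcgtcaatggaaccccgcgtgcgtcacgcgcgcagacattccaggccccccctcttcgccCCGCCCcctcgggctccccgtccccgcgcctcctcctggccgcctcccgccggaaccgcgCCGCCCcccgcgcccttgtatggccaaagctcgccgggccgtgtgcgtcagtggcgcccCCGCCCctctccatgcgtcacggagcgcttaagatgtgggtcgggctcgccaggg

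The windows of Il17a, Il17f and Ifng each hold a TATA box close to the start, which 11.4% of all promoter windows hold. That of Il17a adds an AP-1 site and that of Ifng a STAT site. The Il5 window holds none of the 11 motifs, and the window of Nr4a1 holds 3 GC boxes read on the opposite strand, at a GC content of 74.4%. Each of the 11 motifs was searched on both strands. Core promoter letters were TATAAA for the TATA box, CCAAT for the box of that name and GGGCGG for the GC box. The ETS site was read as CCGGAAG, the CRE, bound by CREB, as TGACGTCA, and the E-box as CACGTG. The AP-1 site was read as TGANTCA, the site of NR4A monomers as AAAGGTCA, and the STAT site as TTCNNNGAA. The NRF1 and NF-kB sites, of 10 letters each, were searched by their usual letters. Matches to the ETS and STAT letters can overlap.

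The same search covered 19142 windows of 15690 measured genes. The ETS letters stood in 14.2% of 2497 windows of genes higher against both wild types, in 10.2% of 1642 windows of lower genes, in 12.8% of 6766 windows of genes past the floor but not called against both, and in 9.25% of all windows. The CRE stood in 3.36%, 1.89%, 2.53% and 1.99% of them, in that order, and the NR4A monomer site in 0.561%, 0.792%, 1.09% and 1.21%. TATA boxes were in 7.33% of windows of higher genes, 8.34% of windows of lower genes and 8.42% of those past the floor but not called, and GC boxes in 54.1%, 56.9% and 53.0%, against 11.4% and 44.2% of all windows. Median GC content was 58.8% in windows of higher genes, 60.6% in those of lower genes, 58.4% in those past the floor but not called and 56.0% over all, so a level above that of all windows was shared by genes past the floor that were not called. Of 15 windows of proteasome core genes 1 held the ETS letters, as did 3 of 35 windows of complex I genes.

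Nr4a1 and its relatives are immediate targets of stimulation in lymphocytes. Nr4a3 was at 16.20, 19.93 and 19.90 and Nr4a2 at 12.04, 13.92 and 14.63, so each of the 3 family genes lay lower than in both wild types. Notch2 was at 9.73, 10.63 and 10.37 and Alkbh5 at 8.92, 8.09 and 8.63, and neither reached the 2-fold size. Of 31 nuclear receptors measured, 18 passed the floor, 4 of them higher and 8 lower, and the median over all measured was -0.21. Nr2f2 was at 6.13, 8.66 and 7.70 and Pparg, a receptor for fatty acids, at 2.91, 5.40 and 4.65. Of 14 EGR and KLF genes past the floor 1 was higher and 5 were lower, with Egr1 at 9.07, 14.93 and 14.54, Klf5 at 5.27, 7.22 and 7.11 and Klf2, which guides lymphocyte migration, at 3.79, 5.30 and 5.97. AP-1 genes gave 5 higher and 5 lower of 14, but 3 and 5 against both wild types, with a median of -0.24, or -0.83 against the Nr4a1 wild type and from -0.78 to -0.54 under the 3 rescalings, where Batf was at 13.83, 9.05 and 10.99 and the repressor Jdp2 at 5.16, 8.42 and 8.22.

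The gene lists that follow were drawn up with earlier results of these data known, so their directions are descriptions of this array. List counts, here and above, stand beside 27.3% higher and 19.4% lower among all genes past the floor. Shares near these say nothing particular about the members of a list. The 20S core of the proteasome, which degrades ubiquitinated proteins, had the highest list median, 2.32, against 0.04 over all genes. Of 18 measured core genes 16 passed the floor, 13 were higher and 0 lower, and the same 13 held against both wild types, beside a background of 22.3%. The median was 2.51 against the Nr4a1 wild type and 0.05 between the wild types, and under the 3 rescalings it ran from 1.80 to 2.01. Of the alpha-ring genes, Psma5 stood at 12.19, 6.75 and 6.57, Psma7 at 11.26, 6.89 and 7.07 and Psma1 at 10.40, 6.87 and 6.88. Of the beta-ring genes, Psmb4 stood at 13.83, 8.47 and 8.57 and Psmb2 at 12.13, 7.02 and 6.95. In each of these 5 the wild types lie within 0.20 of each other and the knockout lies more than 3 above them on the log2 scale.

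Core genes that were not called were Psma4, at 9.71, 10.23 and 10.10, and 2 immunoproteasome genes, Psmb8 at 8.99, 9.37 and 9.34 and Psmb10 at 6.88, 7.48 and 5.90. The third immunoproteasome gene, Psmb9, was at 8.12, 6.39 and 6.46. The tissue-specific forms Psma8 and Psmb11 did not pass the floor. Psma1, Psma4, Psma8 and the Psmb8 to Psmb11 genes were named after their values were seen. The 19S cap, its regulators and the assembly factors had a lower median, 0.57, with 10 higher and 4 lower of 29. The assembly factor Pomp was at 10.52, 6.84 and 6.95, Psme2, of the interferon-induced PA28 cap, at 14.04, 10.55 and 10.45, and Psmd6 at 9.31, 6.05 and 6.22. Psmf1, which encodes the inhibitor PI31, went the other way, at 6.73, 10.48 and 10.22.

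**Figure D4:**
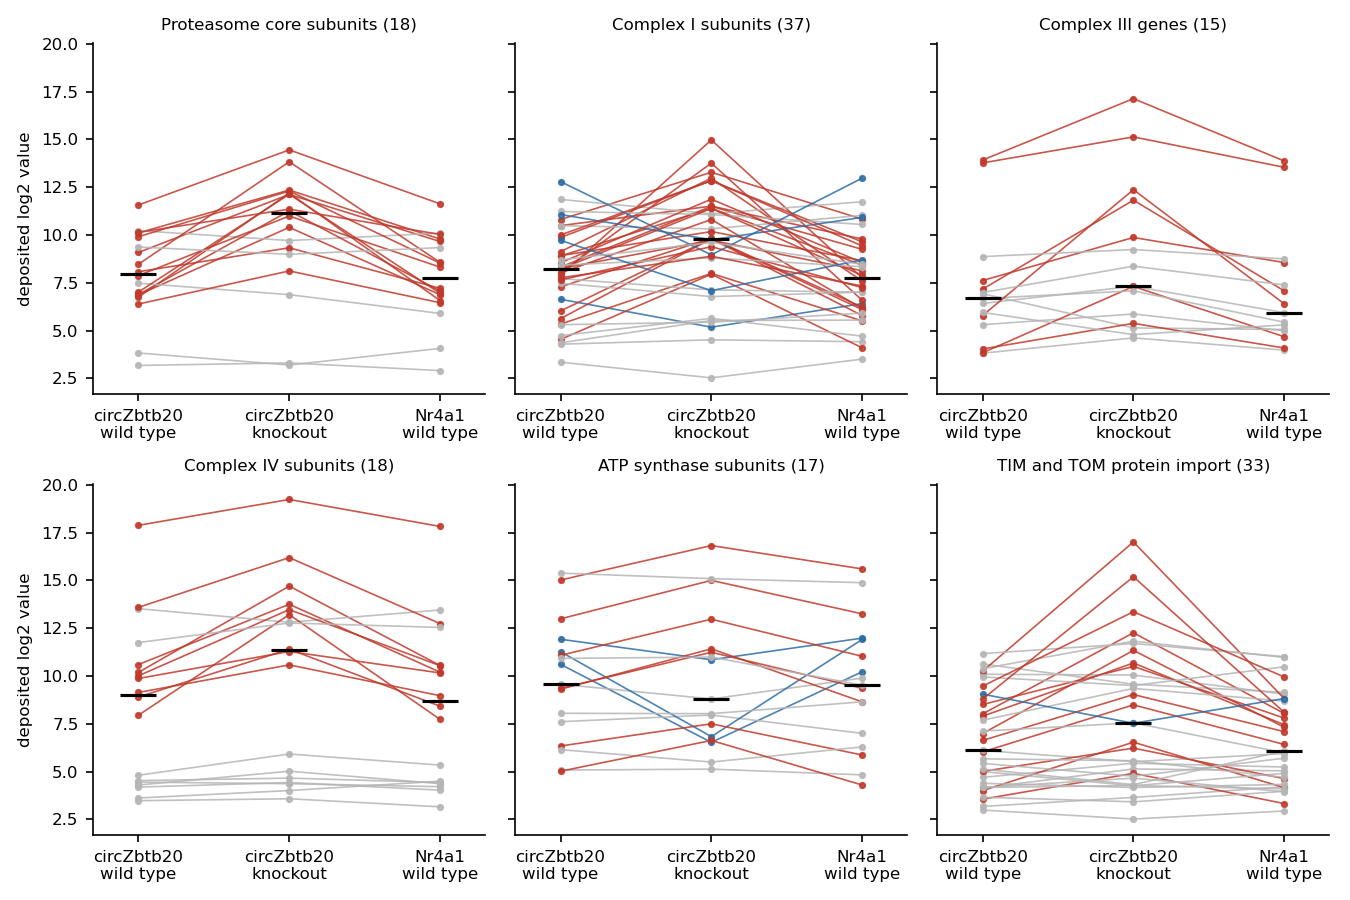
Deposited log2 values of every measured gene of 6 lists on the 3 arrays, joined by a line per gene. Red lines are genes higher and blue lines genes lower in the knockout than in both wild types, grey lines the rest, and black bars list medians. The peaked shape at the knockout is seen in 13 of 18 proteasome core genes and 21 of 37 complex I genes, while ATP synthase genes go both ways.

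Respiratory chain genes of complexes I, III and IV stood higher, with exceptions. Complex I, which takes electrons from NADH, had 22 higher and 4 lower of 36 genes past the floor and a median of 1.26 over 37 measured, against 1.59 with the Nr4a1 wild type. Ndufa2 was at 14.97, 7.88 and 7.76, Ndufa5 at 13.76, 8.03 and 6.59, Ndufb7 at 9.80, 5.63 and 5.79 and Ndufa1 at 12.97, 9.13 and 7.59. The 4 lower genes, named after their values were seen, were Ndufb9 at 8.96, 12.79 and 12.97, Ndufs8 at 7.09, 9.72 and 8.70, Ndufa11 at 5.18, 6.64 and 6.41, and Ndufc1 at 9.75, 11.07 and 10.92. The difference was thus uneven within 1 complex, from -3.83 for Ndufb9 to 7.09 for Ndufa2.

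The complex II list, of subunits and assembly factors, had 3 higher and 0 lower of 6, led by the assembly factor Sdhaf1 at 9.04, 5.46 and 5.62. This complex feeds electrons from succinate. Only the assembly factors Sdhaf1 and Sdhaf2 were higher against both wild types. The list median of 0.39 was 0.04 under quantile normalization and under cyclic loess. Complex III genes and their assembly factors had 8 higher and 2 lower of 15, with a median of 1.34. Uqcr10 was at 12.37, 5.79 and 6.40 and cytochrome c1, Cyc1, at 11.82, 7.17 and 7.08. Of 15 complex IV genes past the floor 11 were higher and 0 lower, and the median over 18 measured was 1.23. Cox7a2 was at 13.21, 7.95 and 7.73, Cox4i1 at 14.70, 10.19 and 10.55, Cox7b at 13.47, 10.01 and 10.54 and Cox5b at 13.75, 10.60 and 10.20. The medians of complexes I, III and IV stayed above 0 against the Nr4a1 wild type and under the 3 rescalings.

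Of 17 ATP synthase genes 7 were higher and 3 lower (41.2% and 17.6%), and their median of 0.07 turned below 0 under each of 3 rescalings. Atp5a1, the alpha subunit of the F1 head, was at 15.00, 12.99 and 13.25 and Atp5j at 11.42, 9.31 and 8.65, while Atp5c1, of the central stalk, was at 6.53, 10.61 and 10.22 and Atp5g2, a c-ring gene, at 6.83, 11.27 and 11.91. In the citric acid cycle and pyruvate dehydrogenase list, 9 genes were higher and 3 lower of 20. Ogdh was at 13.19, 7.98 and 8.09, Pdhb at 14.56, 10.34 and 9.61, and fumarase, Fh1, at 11.52, 7.72 and 7.67.

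In lists of genes that build mitochondria the share higher was above the 27.3% of all genes past the floor. The share lower was not below the background of 19.4% in every list. Of 28 TIM and TOM import genes past the floor 15 were higher and 2 lower, with Timm17b at 11.34, 6.99 and 7.32 and Grpel1, a co-chaperone of the import motor, at 12.26, 8.02 and 8.04. Large mitochondrial ribosome genes gave 18 higher and 5 lower of 45 and a median of 0.46. Mrpl37 stood at 10.39, 5.83 and 5.67 and Mrpl46 at 8.26, 4.12 and 4.38, against Mrpl42 at 5.45, 7.83 and 8.17. Small mitochondrial ribosome genes gave 11 and 3 of 27, with Mrps14 at 11.77, 5.92 and 5.76, and a median of 0.28 that was -0.02 after the median shift. Complex IV assembly factors gave 6 and 1 of 13, with Cox11 at 10.22, 5.87 and 6.30. Complex I assembly factors gave 6 and 3 of 14 (42.9% and 21.4%), with Ndufaf7 at 10.29, 6.23 and 7.06. Genes of mitochondrial fission, fusion and mitophagy gave 6 and 3 of 16 (37.5% and 18.8%). Their median of 0.25 was -0.05 after the median shift. Fis1 was at 11.92, 7.64 and 6.20 and Mfn1 at 9.25, 5.79 and 6.51, while the outer-membrane channel Vdac1 was at 5.65, 7.79 and 8.32. Mitochondrial carriers of the SLC25 family, with 9 higher and 6 lower of 29, were close to the background in both directions.

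**Figure D5:**
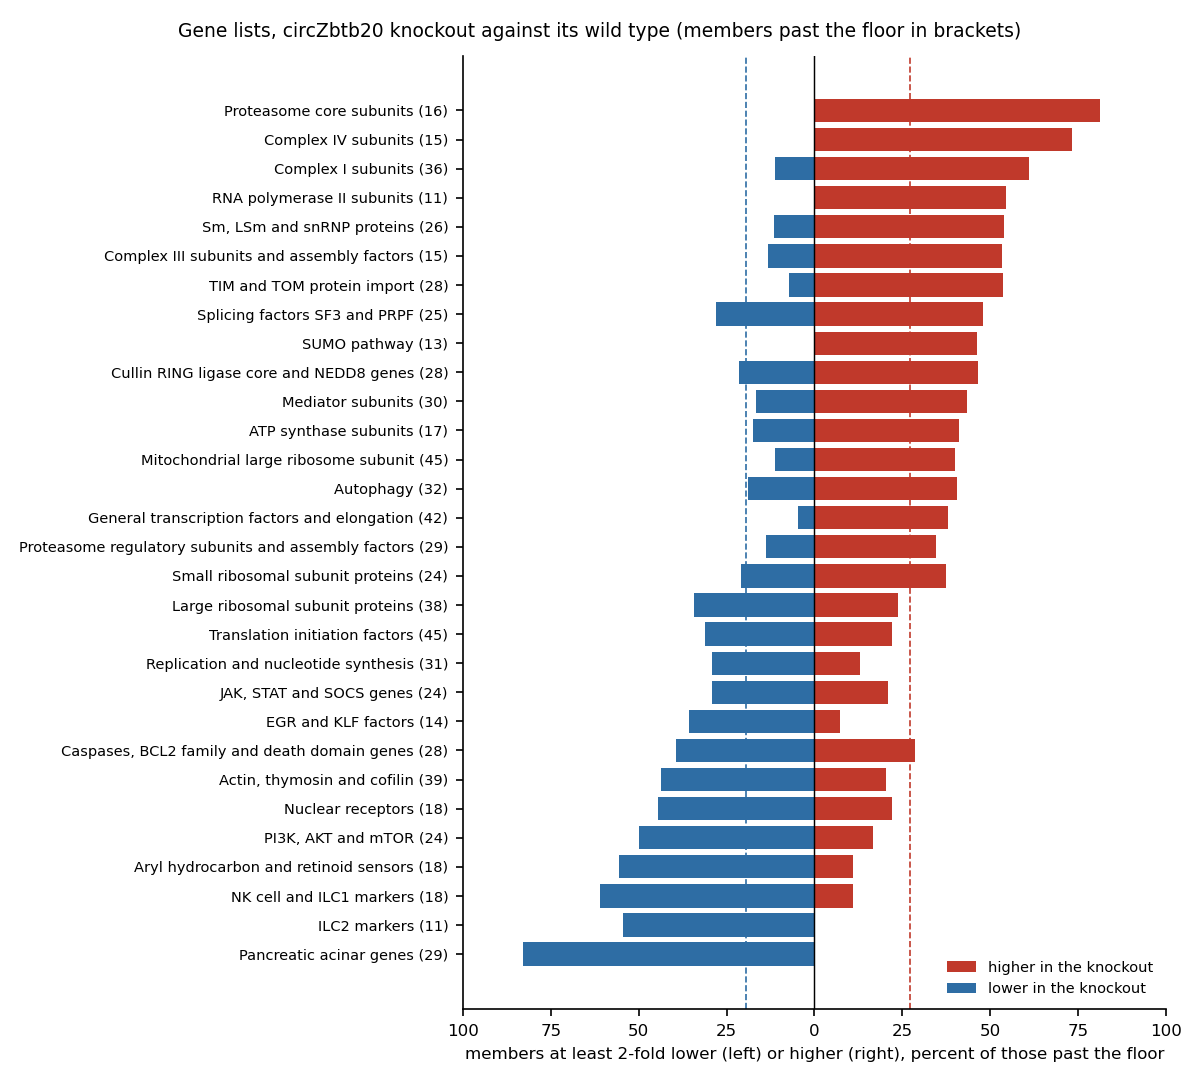
For 30 gene lists, bars give the percent of members past the floor that were at least 2-fold higher (right, red) or lower (left, blue) in the knockout than in its paired wild type. Dashed lines mark all genes past the floor, 27.3% higher and 19.4% lower. Proteasome core genes reach 81.2% higher and pancreatic acinar genes 82.8% lower.

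Parts of the ubiquitin and chaperone machinery showed both directions. Of 28 genes of cullin RING ligases and the NEDD8 pathway 13 were higher and 6 lower, and against both wild types 7 and 6. Beside Rbx1, the NEDD8-activating subunit Nae1 was at 12.93, 10.03 and 9.60, while the adaptor Ddb1 was at 6.53, 10.56 and 10.64 and Dcun1d1 at 6.65, 9.75 and 9.10. SUMO pathway genes gave 6 higher and 0 lower of 13 with a median of 0.89, with Sumo3 at 12.49, 8.88 and 8.34, Sumo2 at 16.02, 13.93 and 13.18 and the protease gene Senp6 at 13.51, 11.61 and 11.92. HSP90 and HSP70 co-chaperones had 9 higher and 8 lower of 18 and only 1 gene uncalled, with a median of 0.11 that was -0.19 after the median shift and -0.35 against the Nr4a1 wild type. Bag6 was at 12.39, 8.49 and 9.34, and Dnajb1 was at 14.99, 9.97 and 13.90, so that its wild types differed by 3.93. Genes of endoplasmic reticulum folding gave 5 higher and 9 lower of 26, with Atf6 at 16.36, 12.83 and 12.21 and the chaperone genes Hspa5 at 15.72, 18.95 and 18.62 and Calr at 11.31, 13.98 and 13.80.

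Translation genes went both ways. Large ribosomal subunit genes gave 9 higher and 13 lower of 38, with a median of -0.32, and small subunit genes 9 and 5 of 24, with 0.44, and these medians were -0.83 and 0.16 against the Nr4a1 wild type. Rpl39 stood at 7.90, 14.95 and 14.70, Rpl10a at 10.76, 16.40 and 16.80 and Rps15 at 13.62, 18.75 and 18.75, against Rpl37a at 18.82, 14.25 and 14.00 and Rpsa at 17.69, 13.83 and 14.76. Ribosomal protein genes have many processed copies, so their probes may not be specific. Of 45 initiation factor genes past the floor 10 were higher and 14 lower, with the RNA helicase Eif4a1 at 8.91, 12.93 and 12.77 and Eif2s2 at 17.27, 14.00 and 13.01. The elongation factor Eef2 was at 10.75, 17.31 and 18.40. Aminoacyl-tRNA synthetases gave 8 higher and 2 lower of 28, with Mars1 at 11.99, 7.43 and 6.64 and Nars at 13.15, 10.10 and 9.68, and a median of 0.24 that was -0.06 after the median shift.

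Among genes that make messenger RNA, more were higher than lower in each of 3 lists. That was also so of all genes past the floor, at 27.3% and 19.4%. Shares higher and lower were 54.5% and 0% for RNA polymerase II subunits and 43.3% and 16.7% for Mediator. They were 38.1% and 4.76% for general transcription and elongation factors. RNA polymerase II subunits had 6 higher and 0 lower of 11, with a median of 1.38, or 1.46 against the Nr4a1 wild type. Polr2e stood at 10.69, 5.21 and 5.91, Polr2g at 9.84, 7.42 and 6.58 and Polr2j at 5.97, 3.60 and 3.65. Mediator, which links enhancers to the polymerase, gave 13 and 5 of 30, with Med31 at 12.69, 7.32 and 7.94 and Med7 at 10.13, 6.38 and 7.13. General transcription and elongation factors gave 16 and 2 of 42, with the TATA-binding protein gene Tbp at 12.73, 9.32 and 8.81 and Gtf2h3 at 8.88, 5.15 and 4.96, against Taf10 at 10.51, 13.93 and 14.63.

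Sm, LSm and snRNP protein genes, the scaffold of the spliceosome, had 14 higher and 3 lower of 26 and a median of 0.98. Snrpe was at 14.79, 9.87 and 9.23, Lsm6 at 10.73, 6.97 and 6.56 and Snrpd2 at 13.65, 10.41 and 10.80. SF3 and PRPF factors gave 12 and 7 of 25, led by Prpf38a at 12.34, 6.75 and 6.54. SR and hnRNP proteins gave 12 higher and 11 lower of 33, with Srsf11 at 15.09, 10.17 and 11.16 and Hnrnpf at 8.52, 13.34 and 13.24, and a median of 0.11 that turned below 0 under quantile normalization and the median shift. In messenger RNA decay, Zfp36, which recruits decay factors to AU-rich elements of cytokine transcripts, was at 7.22, 12.78 and 14.72, and its relative Zfp36l2 at 5.84, 10.58 and 12.60. Pan2, a deadenylase subunit, was at 12.85, 8.51 and 8.78.

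Of 19 m6A genes measured, which include Alkbh5, 6 were higher and 3 lower of 18 past the floor, and the median was -0.26. The ribosomal RNA methylase gene Mettl5 was at 9.68, 7.09 and 6.90, the reader Ythdf3 at 15.18, 13.13 and 13.26 and the eraser Fto at 6.30, 4.60 and 5.04. RNA-binding proteins linked to circular RNAs gave 6 higher and 1 lower of 17, with a median of 0.59. Ago2, the slicer of RNA interference, was at 14.30, 11.28 and 12.11, Ilf2 at 10.29, 8.08 and 8.21 and Dicer1 at 9.90, 7.95 and 7.97. Nuclear pore and transport receptor genes gave 13 and 4 of 36 (36.1% and 11.1%), with Nup85 at 8.35, 4.09 and 4.38 and the importin Kpnb1 at 12.52, 9.75 and 9.63.

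Chromatin genes were mixed, as were all genes past the floor, at 27.3% higher and 19.4% lower. Histone and DNA methylation enzymes gave 11 higher and 6 lower of 34 (32.4% and 17.6%), close to those shares. Dot1l was at 12.95, 9.49 and 10.18 and Suz12, of Polycomb complex PRC2, at 9.24, 12.43 and 12.22. Acetyl-transfer and deacetylation genes gave 8 and 3 of 24, with Kat6b at 13.33, 9.09 and 8.75, Sirt2 at 12.57, 8.76 and 9.21 and Sirt1 at 11.76, 9.47 and 9.72, and a median of 0.12 that was -0.18 under each of the 3 rescalings and -0.08 against the Nr4a1 wild type. The remodeller Chd7 was at 15.77, 10.87 and 12.37.

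Replication and nucleotide synthesis gave 4 higher and 9 lower of 31, and 2 and 8 against both wild types, although the median over all 37 measured was 0.26. Pcna, the sliding clamp, was at 10.54, 13.33 and 13.60, Prim1 at 3.09, 5.84 and 5.86 and Rrm2, of ribonucleotide reductase, at 3.58, 6.05 and 5.04, against Pola1 at 7.68, 4.22 and 4.18. Of 14 mitosis genes past the floor 5 were higher and 4 lower (35.7% and 28.6%). Mad2l1 was at 11.75, 8.67 and 9.06, Cdk1 at 5.62, 2.76 and 3.17 and Kif23 at 5.29, 7.36 and 7.04.

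The PI3K, AKT and mTOR pathway, which couples growth factor and cytokine signals to metabolism, leaned downward. Of 24 genes past the floor 12 were lower and 4 higher, with 11 and 4 so against both references, and a median of -0.73, or -0.80 against the Nr4a1 wild type, and of -0.42 between the wild types. Akt1 was at 4.67, 8.20 and 8.62 and the mTOR-binding protein gene Deptor at 4.76, 7.41 and 7.99. Pik3cb, a catalytic subunit, was at 9.88, 6.51 and 8.01 and Rptor, of mTORC1, at 8.10, 4.75 and 5.29. Named after their values were seen, Akt2 was at 7.95, 5.45 and 5.55, Mtor at 3.92, 5.19 and 5.52 and Pik3r1, the regulatory subunit, at 15.63, 17.19 and 17.07. Akt1 and Akt2, which encode related kinases, thus lay on opposite sides of both wild types.

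The aryl hydrocarbon and retinoid sensors, through which ILC3s read diet and vitamin A, had 2 higher and 10 lower of 18, with a median of -0.74, or -0.38 against the Nr4a1 wild type. The call held against both references for 2 higher and 5 lower genes. Rxra was at 5.09, 7.75 and 7.04, Aldh1a1, which makes retinoic acid, at 3.22, 5.42 and 6.41, and Rara, a retinoic acid receptor gene named after its values were seen, at 6.77, 8.53 and 10.02. The upward members were Dhrs3, a retinal reductase gene, at 16.99, 12.47 and 13.29, and Arnt, the partner of Ahr, at 12.25, 9.63 and 9.60.

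MAP kinase genes gave 7 higher and 2 lower of 19 (36.8% and 10.5%). Mapkapk2 was at 15.54, 10.07 and 9.39, Mapkapk3 at 13.03, 8.18 and 8.11 and p38 alpha, Mapk14, at 11.33, 8.23 and 9.01. The median of the list, 0.16, was -0.05 with cyclic loess and -0.14 after the median shift. Of NF-kB genes 8 were higher and 2 lower of 21, and against both wild types 5 and 2. Their median of 0.20 was -0.09 against the Nr4a1 wild type and -0.11 after the median shift. The 2 lower genes were Rela, the p65 subunit, at 13.18, 17.15 and 18.03, and Bcl3 at 7.54, 10.29 and 11.43. JAK, STAT and SOCS genes gave 5 higher and 7 lower of 24, with Socs2 at 11.04, 14.34 and 14.78, Socs1 at 4.36, 6.51 and 6.01 and Stat5a at 9.67, 11.73 and 11.79.

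Among Notch genes, 8 were higher and 8 lower of 30, and against both wild types 5 and 8. The targets Dtx1, at 4.77, 8.48 and 8.73, and Hes1, at 3.62, 6.32 and 6.74, lay under both wild types. Numb, an inhibitor of Notch, was at 9.36, 6.16 and 7.30, and the target Hey1 at 15.07, 12.42 and 11.95. In the TGF-beta list 3 genes were higher and 5 lower of 20. Tgfb1 was at 12.64, 15.95 and 15.72, Skil at 14.15, 16.07 and 16.39 and Smad3 at 12.54, 14.19 and 14.48. Smurf1 went the other way, at 9.05, 6.89 and 6.82. Calcium and NFAT genes gave 5 higher and 7 lower of 24, with the calcium channel gene Orai1 at 5.72, 9.98 and 10.24 and the phosphatase gene Ppp3ca at 12.40, 9.69 and 10.41. Akap13, an anchor of protein kinase A, was at 6.75, 12.52 and 13.09. Of death and survival genes 8 were higher and 11 lower of 28. Mcl1 was at 4.98, 8.92 and 10.64, the pro-death gene Bcl2l11 at 8.42, 11.78 and 12.31 and the inhibitor Cflar at 10.29, 7.61 and 7.56.

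Receptors for cytokines gave 10 higher and 9 lower of 31 (32.3% and 29.0%). The IL-25 receptor subunit Il17rb was at 3.81, 13.02 and 14.31, Il12rb2, through which IL-12 acts, at 8.13, 14.07 and 14.52, and Il21r at 4.12, 7.03 and 7.11. Checkpoint and costimulatory receptors gave 5 higher and 8 lower of 22. Pdcd1, the gene of PD-1, was at 8.54, 13.44 and 13.73 and Cd226, an activating receptor, at 11.30, 5.69 and 6.38. In the TNF superfamily, Tnfrsf25, the receptor for TL1A, was at 11.29, 7.39 and 7.63 and Fasl at 3.73, 5.43 and 5.40. Chemokine receptors gave 5 higher and 5 lower of 15, with Ccr8 at 4.50, 11.43 and 13.75, Gpr183, an oxysterol receptor that positions ILC3s, at 12.20, 14.84 and 14.21, and Cxcr3 at 8.55, 6.21 and 5.72. Of the integrin list, Itgb3 was at 9.78, 13.05 and 13.92, Itgb7, part of the gut-homing integrin, at 5.92, 8.53 and 7.66, and Icam1 at 13.37, 10.45 and 11.12. Receptors for tissue mediators included Ptger2, for prostaglandin E2, at 12.35, 7.70 and 8.48, and Gfra2 at 4.73, 8.16 and 6.44.

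The glycolysis, cholesterol, fatty acid, redox and iron lists had medians between -0.08 and 0.38, with large differences on each side. In glycolysis the hexokinase gene Hk1 was at 4.91, 9.13 and 9.01 and Ldha at 8.64, 12.60 and 12.64, while the glucose transporter gene Slc2a1 was at 12.43, 9.09 and 9.76 and Pfkp at 12.23, 9.86 and 9.77. Of 23 cholesterol genes past the floor 5 were higher and 5 lower, with Hmgcs1 at 6.09, 8.66 and 9.20 and Cyp51 at 7.67, 10.50 and 12.18 against Msmo1 at 8.54, 5.45 and 5.41. Fatty acid genes gave 10 and 6 of 29 (34.5% and 20.7%). The desaturase Scd1 was at 4.81, 8.51 and 8.01 and Cpt1a, which admits fatty acids to mitochondria, at 8.01, 5.39 and 6.58. Redox genes gave 6 higher and 9 lower of 28, with Prdx2 at 12.58, 8.69 and 7.98 and Gpx3 at 5.22, 8.86 and 10.36. Of iron-sulphur cluster assembly, Hscb was at 7.61, 3.91 and 3.43 and Glrx5 at 9.07, 5.49 and 5.57, and the ferritin gene Fth1 was at 16.73 against the ceiling on both wild types.

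Autophagy genes gave 13 higher and 6 lower of 32, and 13 and 5 against both wild types. Gabarapl2 was at 11.71, 7.13 and 6.95 and Map1lc3b, which encodes the LC3B protein of the autophagosome membrane, at 13.73, 9.25 and 9.02, while Atg16l2 was at 8.78, 13.21 and 11.41 and Atg9a at 5.54, 9.43 and 8.81. Lysosomal genes gave 14 and 9 of 37 (37.8% and 24.3%). Atp6v1f, Atp6v1g1 and Atp6v1e1, which encode subunits of the proton pump, were at 14.93, 10.69 and 9.60, at 10.30, 6.43 and 6.43, and at 10.84, 7.43 and 7.50.

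Actin genes leaned downward. Of 39 past the floor 17 were lower and 8 higher, 16 and 7 of them against both references. The median of -0.74 stayed below 0 against the Nr4a1 wild type and under the 3 rescalings. Between the wild types the median was -0.01. After Tmsb4x came Tpm3, a tropomyosin gene, at 10.45, 15.91 and 15.10, and Cfl1, which severs filaments, at 14.27, 17.94 and 17.95. Actb, named after its values were seen, was at 15.63, 18.69 and 18.75. Lcp1, a filament bundler of leukocytes, went the other way at 18.47, 13.98 and 14.22. Of 29 tubulin and dynein genes 11 were higher and 5 lower, with the tubulin genes Tubb5 at 7.54, 12.30 and 11.87 and Tuba1c at 7.55, 11.42 and 11.25 and Dctn6 at 12.01, 7.56 and 6.86. Rab GTPases gave 5 higher and 11 lower of 42, with Rab27b, which docks secretory granules, at 3.46, 7.42 and 8.81 and Rab11a at 14.33, 10.74 and 10.57. Gng5, a G protein gamma subunit gene, was at 11.31, 14.83 and 14.80 and Gng12 at 12.59, 9.09 and 8.98. Of 8 GIMAP genes, GTPases of lymphocyte survival, 4 were higher and 0 lower, 2 of them against both wild types, with Gimap3 at 14.49, 9.92 and 10.64.

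Markers of other cells differed in direction from list to list. Of 29 pancreatic acinar genes past the floor 24 were lower and 0 higher, and 20 against both wild types, with a median of -4.38 over 31 measured, or -2.01 against the Nr4a1 wild type. The log2 of their summed linear values was 10.99 in the knockout, 19.97 in the paired wild type and 16.43 in the other, and 15 of the 31 lay under the median in the knockout, 2 in the paired wild type and 6 in the Nr4a1 wild type. Ctrb1, a chymotrypsinogen gene, was at 3.43, 14.32 and 12.33, and the amylase genes Amy2a2, Amy2a4 and Amy2a5, which are near-identical copies, were at 8.32, 18.16 and 14.73, at 9.36, 18.98 and 15.24, and at 7.70, 17.16 and 13.63. The wild types differed by a median of 1.99 on this list. Of 12 B cell and plasma cell markers past the floor 2 were higher and 3 lower, 2 and 2 against both wild types. The plasma cell gene Jchain was at 11.29, 16.12 and 19.08. Prdm1, at 9.88, 7.53 and 8.17, and Ebf1, at 9.19, 7.85 and 7.26, went the other way.

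ILC2 markers had 6 lower and 0 higher of 11, with a median of -2.17, or -4.02 against the Nr4a1 wild type, and a summed level of 9.11, 13.63 and 14.53. Il4 was at 2.89, 7.56 and 7.81 and Klrg1 at 4.79, 7.56 and 8.89, and Arg1, named after its values were seen, was at 8.37, 7.45 and 6.78. NK cell and ILC1 markers had 11 lower and 2 higher of 18 and a median of -1.96, or -1.31 against the Nr4a1 wild type. Gzma was at 7.28, 14.04 and 13.05, Ccl5 at 5.19, 9.10 and 10.12 and Nkg7 at 6.59, 10.38 and 10.24. The 2 higher genes were Ifng and Ncr1, and the list's summed level was 18.68, 16.04 and 15.82. Macrophage markers had 7 lower and 2 higher of 16, with Apoe at 5.93, 12.48 and 13.94 and Fcer1g at 10.51, 13.63 and 13.33, and a sum of 14.67, 14.54 and 15.37.

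Epithelial markers of the gut did not keep a side, with a median of 0.07 that turned below 0 under each of the 3 rescalings and was -1.21 against the Nr4a1 wild type. Of 25 past the floor 10 were higher and 8 lower, 1 and 8 against both wild types, and 22 of the list were called between the wild types. Tff3 was at 8.79, 3.59 and 7.30, Reg3b at 5.21, 8.20 and 8.73 and Fabp2 at 6.94, 9.41 and 11.23. Endothelial, fibroblast and smooth muscle markers had 10 lower and 0 higher of 25, 5 of the 10 against both wild types, and a median of -0.59, or -0.26 against the Nr4a1 wild type, with Col3a1 at 5.03, 8.37 and 6.39. Thy1, the CD90 gene of the sort, is on this list and among those lower against both. T cell genes had 6 higher and 4 lower of 18 (33.3% and 22.2%), 3 and 4 against both. Lat was at 10.62, 8.30 and 8.36, Zap70 at 12.33, 10.18 and 10.11 and Cd28 at 4.73, 6.25 and 6.21. Neutrophil, eosinophil and mast cell markers had 5 of 23 past the floor and 0 called. The part of such cells in the differences of the other lists was not tested.

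Y-linked genes differed between the arrays as well, and the labels give no sex. Uty was at 10.98, 2.65 and 9.96, and Kdm5d and Eif2s3y, named after their values were seen, were at 7.59, 2.89 and 6.16 and at 3.79, 3.04 and 8.68. The paired wild type was low in all 3 and the knockout in Eif2s3y alone, so the 3 genes gave no single pattern. Across the other chromosomes the share of higher genes past the floor lay between 23.3% on chromosome 13 and 31.6% on chromosome 1. When genes past the floor were cut into 5 bins by genomic length, from RefSeq's table, the share higher was 27.6% in the shortest bin, 29.7% in the next and 23.8% in the longest, and the share lower was lowest in that second bin, at 17.0%, and highest in the longest, at 22.4%.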

How the data were processed

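The deposited table holds log2 values for 4 Affymetrix arrays of sorted mouse ILC3s, 1 for each genotype. Per the submitters' processing notes, the authors used Affymetrix Power Tools with RMA, which subtracts background, gives arrays a common distribution and joins the probes of a transcript. Their versions and the genome build behind the rows are not stated. The series text names a mouse gene array protocol, while the row identifiers match another Affymetrix mouse platform, whose probe table named the rows. Of 22205 rows 19571 had 1 symbol and 2634 none. Scaling to a common distribution hides any change of total RNA. The deposited columns do not share 1 distribution, however. Their 75th percentiles were 6.79 in the knockout, 6.58 in the paired wild type and 6.60 in the Nr4a1 wild type. Rows at the ceiling numbered 3, 21 and 25 in that order. The ceiling of 19.93 has no stated origin, so differences need not equal ratios of RNA abundance.

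Samples were grouped by title. Differences of the deposited log2 values were taken with Python 3.11.15, pandas 2.3.3 and numpy 2.4.6, and the counting was tested on simulated data. No p-value was computed. The 101 gene lists and the members were chosen with earlier results of these data known, so no list is independent evidence of its direction. Named genes were the 25 highest and 25 lowest called against both references (leaving out Gm and Rik genes, small RNAs, chemosensory receptors and segments of antigen receptors), up to 4 per list with the greatest difference, 10 on each side among genes alike in the wild types, the ILC3 defining genes, and Nr4a1, Nr4a2, Nr4a3, Notch2 and Alkbh5. Alternatives were another reference array, 3 rescalings (limma 3.58.1 in R 4.3.3 for quantile and cyclic loess), the mean of a gene's rows, other floors, leaving out genes at the ceiling, and a 4-fold size. List medians cover all measured members. Promoter windows came from RefSeq's table and were cut to the 250 bases before the start.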

Additional observations from a re-analysis of the deposited data

Results flagged for a closer look

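Rows without a gene symbol lay outside the comparisons of genes and still carried signal that set the knockout apart. Of 1320 such rows past the floor, the knockout lay above both wild types in 251 and below both in 252, together 38.1%, while 18.8% of 1322 differed between the wild types. What these rows measure was not analysed here. No group has the 4 arrays needed to look for a sample that lies far from the others of its group.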

How the results depend on the processing

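No paired analysis was possible because each genotype has 1 array and the labels carry no replicate numbers. The counts of 3035 higher and 2157 lower genes stayed within 1.5 times under either other reference, the 3 rescalings, the mean of a gene's rows, leaving out genes at the ceiling and no floor. With a floor at the 75th percentile 1333 genes were lower, and at a 4-fold size 1267 were higher and 771 lower. Shifting arrays to a common median left 2378 higher and 2896 lower, and turned the balance of list medians from 61 above 0 and 38 below to 31 and 70. That balance was 45 and 54 against the Nr4a1 wild type, 51 and 50 against the mean of both wild types, 50 and 50 with quantile normalization and 45 and 56 with cyclic loess, so which side held more lists depends on the reference and the scaling. Of 424 named genes, 1 (Zbtb16) changed sign in any setting. Most were named because they differed at least 2-fold from both wild types in the same direction. Their sign was thus largely fixed by that choice, and this count is no measure of stability. Of 9 several-row genes called against both wild types, 7 had the same sign in their next brightest row. Signal close to an array's median is mostly background, which limits what can be said of weakly expressed genes.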
